A study of Mus musculus with 18 samples.

Results

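The 7 neuronal tubulin, stathmin and growth cone genes followed in mouse molar dental epithelium were Tubb3, Tubb2a, Tubb2b, Tuba1a, Stmn2, Stmn3 and Gap43. They were chosen by name and with earlier results of these data known, among them that Tubb3 and Stmn2 were higher in the double knockout at embryonic day 17 (E17). The genotype differences of all 7 genes at E17 and at postnatal day 5 (P5) are therefore given as descriptions, with no p-value, and where the number that passed a threshold is given it stands beside the share of all genes. All 7 were found by gene symbol in the E17 table, among 32532 genes, and in the P5 table, among 19450 genes. The table of postnatal day 0 (P0) listed 4841 genes and none of the 7, so these genes were not analysed here at P0. It stopped at 16384 columns, so a gene missing from it was not thereby unexpressed. Shares of all genes at P0 cover only the genes it listed. In all, 33665 gene symbols were listed over E17, P0 and P5.

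Microtubules are built from pairs of an alpha- and a beta-tubulin, and mammals carry several genes for each. Tubb3 encodes class III beta-tubulin, which is widely used as a marker of neurons, and Tuba1a, Tubb2a and Tubb2b encode the isotypes that predominate in the developing brain. Stathmins bind free tubulin and promote the shortening of microtubules. Gap43 is a membrane-bound protein of growth cones, the tips of growing nerve fibres. The molar epithelium is not a neural tissue, but nerve fibres and their sheath cells reach the tooth germ from the trigeminal ganglion, whose cell bodies lie outside it. In bulk RNA, fewer cells of a type and less RNA per cell cannot be told apart.

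The study compared dental epithelium labelled DKO, meaning Hmgn1-/- and Hmgn2-/- (the double knockout), with wild type (WT) at E17, P0 and P5, with 3 libraries in each of the 6 groups. HMGN1 and HMGN2 are proteins that bind nucleosomes, and the series asks about their part in the differentiation of ameloblasts, the cells that secrete enamel. The epithelium was peeled from the mesenchyme with dispase, and ribosomal RNA was depleted before sequencing. The labels do not give the strain, the sex or the design of the deleted alleles, and nothing in them says that each library had its own animal or litter; p-values then measure the spread between these libraries, which may be technical. At E17 a library had 65953495 to 99967427 deposited alignments. The P0 libraries had 74845352 to 108920337, and those of P5 had 39209676 to 72660832.

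Hmgn2 stood at 0.839, 0.953 and 0.975 RPKM (reads scaled to transcript length and to the reads of the library) in the DKO libraries at E17, against 354, 344 and 320 RPKM in WT. At P5 it stood at 9.05, 5.44 and 10.4 RPKM in DKO, against 183, 166 and 166 RPKM in WT. Hmgn1 was lowered less, at 86.2, 92.9 and 92.7 RPKM in DKO at E17 against 133, 129 and 123 RPKM in WT, and at 72.6, 69.8 and 72.2 RPKM in DKO at P5 against 187, 190 and 179 RPKM in WT. Whether the deposited Hmgn1 values lie inside the deleted part is not given in the sources used here.

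The start regions of Tubb3, Tubb2a and Stmn3 are shown because they span the range of CpG content found among the genes below. RefSeq's promoter table (build GRCm38.p6) held 4 of the 7 genes. The first stretch lies at chr8:123411324-123411423 on the plus strand, the second at chr13:34078009-34078108 on the minus strand and the third at chr2:181314501-181314600 on the minus strand. Each ends before the start of the gene in both RefSeq and GENCODE, and runs 5′ to 3′. Capitals mark the GC box (GGGCGG), the CCAAT box (CCAAT) and the TATA core (TATAA), searched on both strands.
Tubb3: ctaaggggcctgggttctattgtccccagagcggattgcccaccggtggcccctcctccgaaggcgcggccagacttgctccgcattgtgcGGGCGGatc
Tubb2a: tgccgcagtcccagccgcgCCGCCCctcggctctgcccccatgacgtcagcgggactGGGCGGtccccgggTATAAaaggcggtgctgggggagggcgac
Stmn3: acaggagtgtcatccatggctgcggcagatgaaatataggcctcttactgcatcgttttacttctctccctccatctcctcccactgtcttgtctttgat

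The 250 bases before the RefSeq start held 21 CpG pairs at Tubb3, 22 at Tubb2a, 11 at Tuba1a and 3 at Stmn3, against a median of 6 over 32851 promoters. Their GC content was 68% at Tubb3, 68.4% at Tubb2a, 56.8% at Tuba1a and 48.8% at Stmn3, against a median of 52.4%. The GC box was found in 32.7% of all promoters over the same length, the CCAAT box in 33.8% and the TATA core in 22.8%. Tubb3 held all 3 motifs, its TATA core matching on both strands at overlapping letters, Tubb2a held the GC box and the TATA core, Tuba1a held all 3, and Stmn3 held none. The RefSeq start of Tubb3 lies 129 bases inside the gene as GENCODE gives it, and that of Tuba1a likewise lies inside its own GENCODE gene. The CCAAT box and the TATA core of Tubb3 thus lie within the GENCODE gene and outside the stretch printed. These letter matches describe the windows only. Tubb3 itself spans chr8:123411424-123422015 on mm10.

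At E17 the 7 genes were separated by genotype in every case, but by unequal amounts. Tubb3 was at 22.9, 25.8 and 24.1 RPKM in the DKO libraries, against 7.30, 7.39 and 7.07 RPKM in WT. The DKO mean of Tubb3 was 24.3 ± 1.44 RPKM and the WT mean 7.25 ± 0.166 RPKM (SD, n = 3 each), a ratio of 3.35. On the log2(RPKM + 1) scale, used for every log2 value here, the difference was 1.61 ± 0.07 (standard error). Each DKO library held more Tubb3 than any WT library, and the libraries of a genotype lay close together.

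Values as deposited were shifted at E17 for genes in general, with a median log2 difference of 0.25 over the 13728 genes tested. Each gene was therefore also compared after the libraries were scaled to the same upper quartile, which brought that median to -0.00. A gene not among the 7 is said to have risen or fallen only where it passed a Benjamini-Hochberg adjusted p of 0.05 in limma in the same direction both as deposited and after this scaling. Tubb3 remained higher in DKO after scaling, by 1.35 on the log2 scale.

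The other 2 beta-tubulins of the group were far more abundant than Tubb3 in WT and differed less. Tubb2a was at 49.5, 47.0 and 51.4 RPKM in DKO, against 40.1, 35.4 and 39.0 RPKM in WT, a log2 difference of 0.36 ± 0.07 that was 0.08 after scaling. Tubb2b was at 58.8, 60.7 and 60.1 RPKM in DKO, against 51.9, 38.1 and 49.1 RPKM in WT, a log2 difference of 0.37 ± 0.11 that was 0.09 after scaling. The 2 genotypes did not overlap for either gene as deposited, and the differences lay near those of genes in general. Tuba1a, the alpha-tubulin, was the most abundant of the 7, at 389, 411 and 397 RPKM in DKO against 304, 282 and 287 RPKM in WT. Its log2 difference was 0.46 ± 0.07 as deposited and 0.17 after scaling. Tubb2a and Tubb2b are near-identical copies, as are Tuba1a, Tuba1b and Tuba1c, and how the authors divided reads between copies is not given in the sources used here, so their values are less certain than that of Tubb3.

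Among the stathmins and the growth cone gene the differences were again large. Stmn2, a stathmin of neurons that takes part in axon growth, was at 6.02, 5.55 and 6.36 RPKM in DKO against 1.41, 1.12 and 1.12 RPKM in WT at E17. Its log2 difference was 1.65 ± 0.08, and 1.45 after scaling. Stmn2 was low in both genotypes beside the tubulins, and its 2 groups lay well apart. Stmn3, another neuronal stathmin, was at 1.70, 1.92 and 1.61 RPKM in DKO against 0.248, 0.249 and 0.221 RPKM in WT. It met the limit of 1 RPKM in 3 libraries through the DKO libraries alone, so a difference was built into its being tested. Its log2 difference was 1.14 ± 0.09, and 1.03 after scaling. Gap43 was at 20.4, 17.2 and 20.7 RPKM in DKO against 9.56, 11 and 8.57 RPKM in WT, a log2 difference of 0.93 ± 0.10, and 0.66 after scaling. All 3 DKO libraries exceeded all 3 WT libraries for each of these genes.

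**Figure D1:**
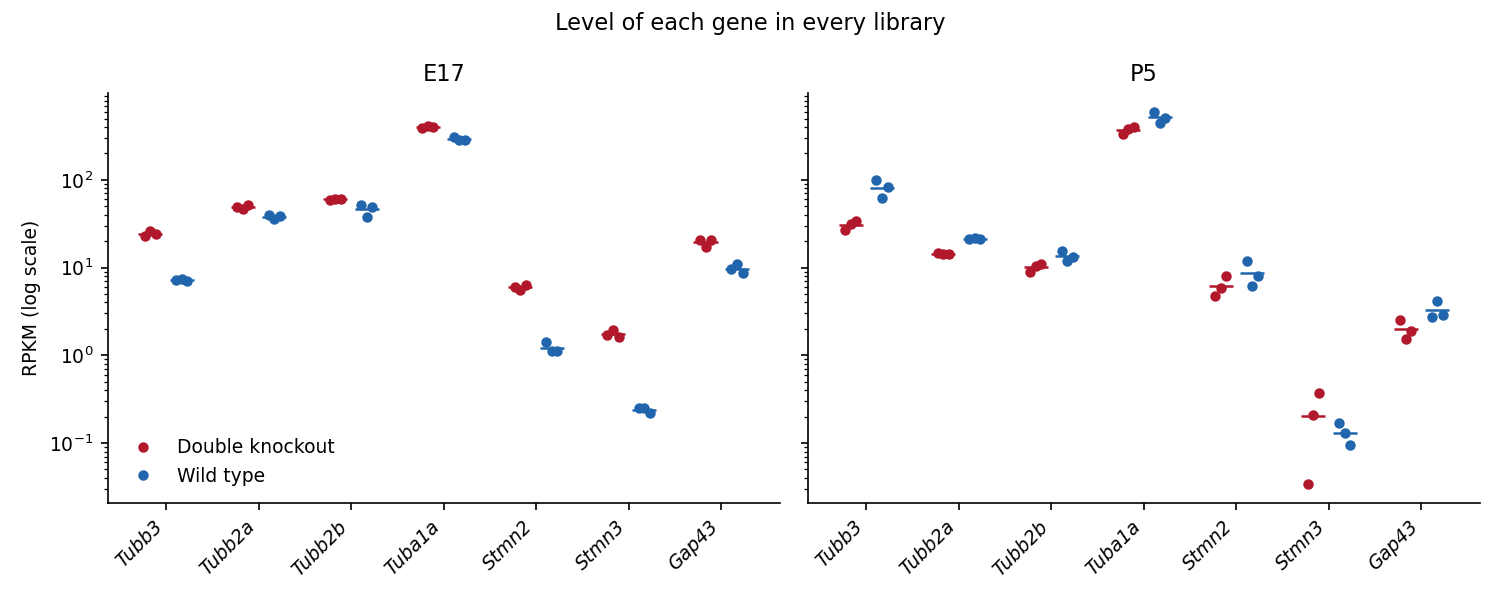
RPKM of the 7 genes on a logarithmic axis in each of the 12 libraries of E17 and P5, with points for libraries and bars for group means (3 libraries each). Tubb3 lies higher in DKO than in WT at E17 (means 24.3 and 7.25 RPKM) and lower in DKO than in WT at P5 (means 30.7 and 81.6 RPKM).

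As deposited, 7 of the 7 genes passed the threshold as higher in DKO at E17, where 56.3% of all genes tested did. Under the rule of both scalings 4 of them passed (Tubb3, Stmn2, Stmn3 and Gap43), where 6.61% of all genes did. The 7 had DKO libraries wholly above WT libraries, as did 60.9% of all genes. The genes were chosen with these differences known, and nothing is read from the counts. The median log2 difference of the 7 was 0.93 as deposited and 0.66 after scaling.

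At P5 the direction of Tubb3 was the opposite. Tubb3 was at 26.6, 31.7 and 33.7 RPKM in the DKO libraries, against 100, 61.8 and 82.9 RPKM in WT. The mean was 30.7 ± 3.65 RPKM in DKO and 81.6 ± 19.2 RPKM in WT (SD, n = 3 each), a ratio of 0.376. The log2 difference was -1.36 ± 0.15, and -1.14 after scaling. Every DKO library lay below every WT library, and the WT libraries were spread more widely than at E17. The median of all 11423 genes tested at P5 was -0.25 as deposited and -0.06 after scaling. The E17 and P5 tables use different transcript sets and were normalized apart, so levels are not compared between the stages by a test.

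Tubb2a was at 14.5, 14.2 and 14.3 RPKM in DKO at P5, against 21.3, 21.9 and 20.9 RPKM in WT, with a log2 difference of -0.55 ± 0.06 (-0.33 after scaling). Tubb2b was at 8.82, 10.5 and 10.9 RPKM in DKO, against 15.5, 11.8 and 13.3 RPKM in WT, with a log2 difference of -0.39 ± 0.10 (-0.18 after scaling). Tuba1a was at 333, 376 and 401 RPKM in DKO, against 592, 448 and 503 RPKM in WT, with a log2 difference of -0.47 ± 0.10 (-0.25 after scaling). These 3 tubulins were lower in every DKO library, by amounts nearer to the shift of all genes than the Tubb3 difference was.

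Gap43 was at 2.49, 1.55 and 1.89 RPKM in DKO at P5, against 2.71, 4.13 and 2.91 RPKM in WT, a log2 difference of -0.51 ± 0.14 (-0.35 after scaling). Stmn2 was at 4.70, 5.80 and 7.99 RPKM in DKO, against 11.9, 6.23 and 7.96 RPKM in WT, and its 2 groups overlapped. Its log2 difference was -0.42 ± 0.20 (-0.22 after scaling). Stmn3 was at 0.034, 0.209 and 0.370 RPKM in DKO, against 0.17, 0.13 and 0.094 RPKM in WT, below the limit for testing, and its groups overlapped too. Stmn2 thus did not separate the genotypes at P5. Its E17 difference was close in size to that of Tubb3 on the log2(RPKM + 1) scale, and larger as a ratio of means (4.90 against 3.35). The P5 difference of Stmn2 moved both ways when single libraries were left out. Without DKO replicate 3 it was -0.59, and without WT replicate 2 it was -0.61. Without DKO replicate 1 it was -0.27, and without WT replicate 1 it was -0.19.

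Of the 7 genes 6 were tested at P5, and 5 of them passed as lower in DKO as deposited, where 58.2% of all genes did. Under both scalings 3 passed as lower (Tubb3, Tubb2a and Tuba1a), where 30.8% of all genes did. The Tuba1a call under both scalings was lost without DKO replicate 1, DKO replicate 2, WT replicate 1 or WT replicate 3. Every DKO library lay below every WT library for 5 of the genes, as for 61.8% of all genes, and nothing is read from these counts either. The median log2 difference of the 6 was -0.49, and -0.29 after scaling.

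**Figure D2:**
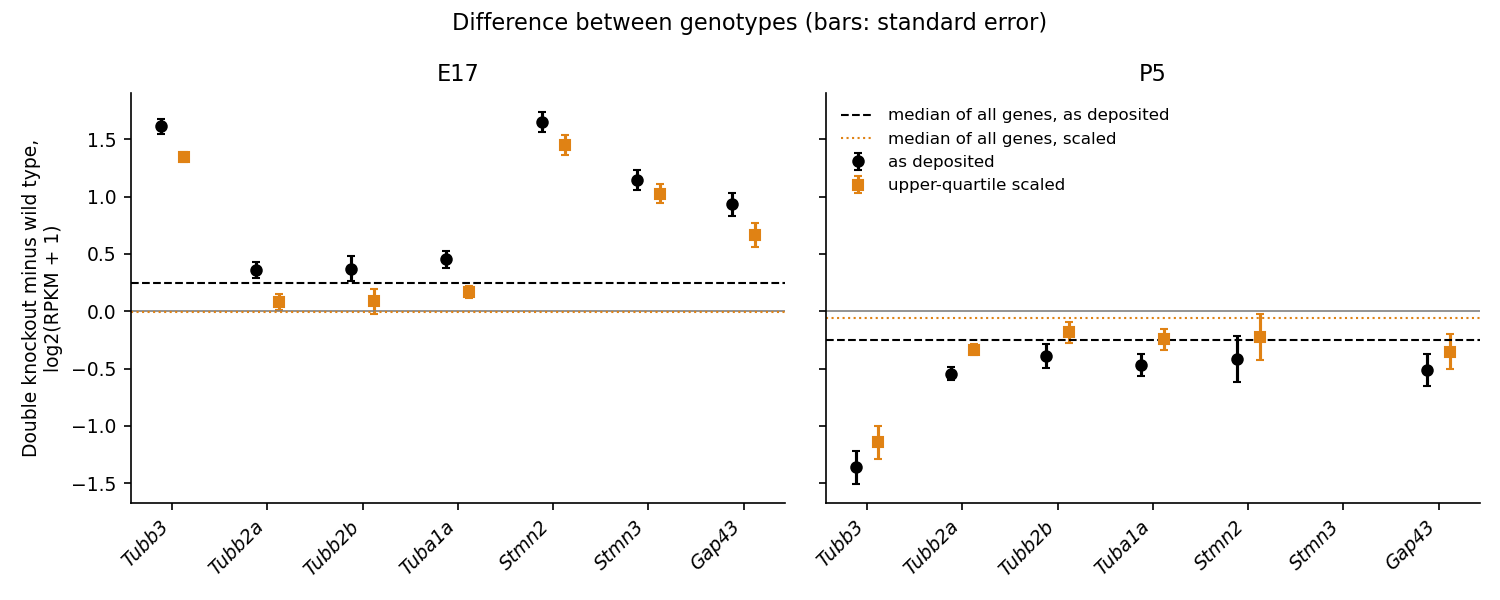
Log2 differences (DKO minus WT, log2(RPKM + 1)) of the 7 genes at E17 and of the 6 tested at P5, as deposited and after upper-quartile scaling, with standard errors as bars; dashed and dotted lines give the median of all genes tested as deposited and after scaling. Tubb3 stands at 1.61 at E17 and at -1.36 at P5, while Tubb2a, Tubb2b and Tuba1a stay nearer to the median at both stages.

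The share of each isotype within its own family does not depend on how the libraries were scaled. Of the summed RPKM of 8 beta-tubulin genes, Tubb3 took 3.11%, 3.24% and 3.10% in the DKO libraries at E17, against 1.25%, 1.25% and 1.23% in WT. At P5 it took 7.63%, 8.91% and 8.82% in DKO, against 17.9%, 13.6% and 16.9% in WT. The groups were apart at both stages and in opposite directions. Tubb2a took 6.41% ± 0.443 in DKO and 6.55% ± 0.479 in WT at E17 (SD, n = 3 each), and Tubb2b 7.78% ± 0.182 in DKO and 7.97% ± 1.31 in WT; both overlapped between genotypes, also at P5. Tubb5, a beta-tubulin made by most cells, was the main one, at 57.5% in DKO and 58.0% in WT at E17 and at 39.4% in DKO and 39.5% in WT at P5.

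**Figure D3:**
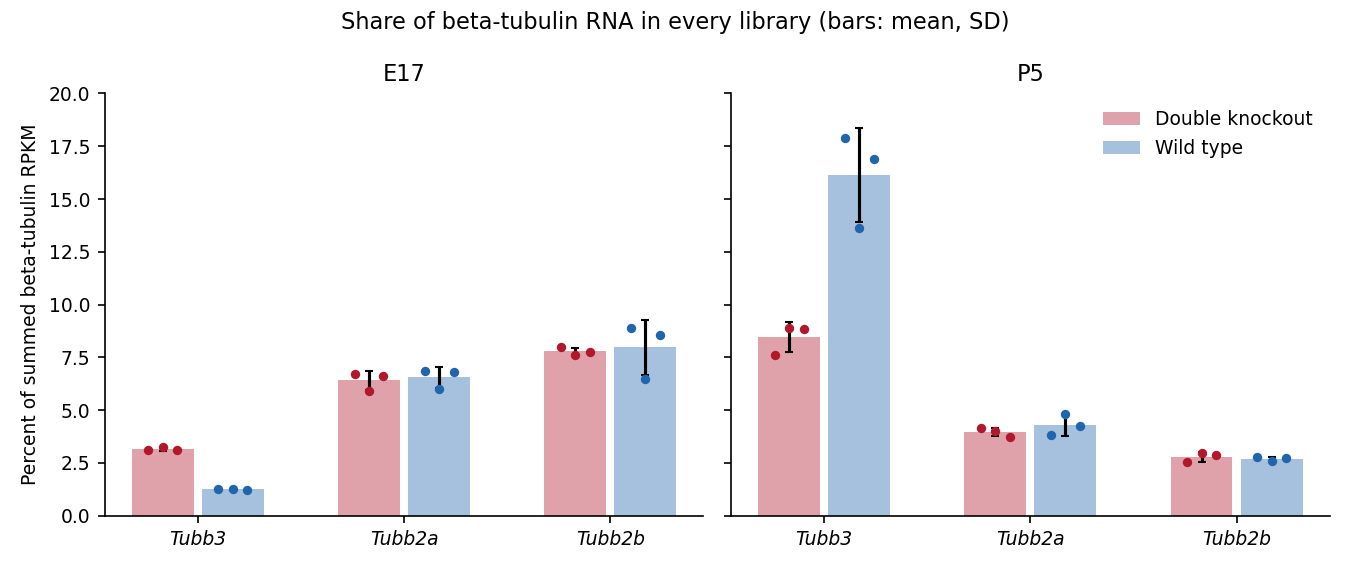
Percent of the summed RPKM of 8 beta-tubulin genes taken by Tubb3, Tubb2a and Tubb2b in each library (points) with group means and SD (bars), on the same axis at E17 and P5. Tubb3 takes 3.15% in DKO and 1.24% in WT at E17 and 8.45% in DKO and 16.1% in WT at P5, whereas the shares of Tubb2a and Tubb2b overlap.

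Tuba1a took 37.4% of the summed alpha-tubulin RPKM in DKO and 36.7% in WT at E17, and 70.4% in DKO and 69.8% in WT at P5, with overlapping libraries at both stages. Among the stathmins, Stmn1 took 97.8% of the RPKM in DKO and 99.0% in WT at E17, and 88.3% in DKO and 90.9% in WT at P5. Stmn2 took 1.53%, 1.18% and 1.44% of stathmin RPKM in DKO at E17, against 0.474%, 0.372% and 0.425% in WT. At P5 it took 8.84%, 10.2% and 14.6% in DKO, against 11.6%, 6.43% and 8.52% in WT, and the groups overlapped.

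Other tubulin genes were compared next. Of 16 further genes of the alpha, beta, gamma, delta and epsilon families 12 were tested at E17, and 2 rose and none fell, where 6.61% of all genes rose and 3.07% fell. As deposited 9 passed as higher, where 56.3% of all genes did. Their median log2 difference was 0.41, and 0.14 after scaling. The 2 that rose were Tuba1c, an alpha-tubulin (0.50, adjusted p = 0.00203 by limma), and Tubg1, the gamma-tubulin that starts microtubule growth (0.43, adjusted p = 0.00164 by limma). The Tubg1 call was lost without any 1 of the 6 libraries, and that of Tuba1c without any of them but WT replicate 2, with adjusted p-values of up to 0.139 and 0.149. Tubb5, Tubb4b and Tuba1b were at log2 differences of 0.10, 0.17 and 0.11 after scaling and did not pass there. Tubb6, a beta-tubulin found outside neurons, was at 45.2, 47.4 and 47.1 RPKM in DKO and 49.5, 43.2 and 47.5 RPKM in WT, with overlapping groups.

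At P5 10 of these tubulins were tested, and 6 fell and none rose, where 30.8% of all genes fell and 7.35% rose, with a median of -0.51 (-0.28 after scaling). Tubb4b, a broadly made beta-tubulin, fell to 42.3, 39.2 and 45 RPKM in DKO, against 83.7, 64.6 and 70.7 RPKM in WT (-0.77, adjusted p = 5.64e-05 by limma). Tubg1 fell to 6.36, 6.29 and 6.0 RPKM in DKO, against 13.3, 11.4 and 10.2 RPKM in WT (-0.80, adjusted p = 4.6e-05 by limma). Tuba1b (-0.55), Tubb5 (-0.47), Tuba8 (-0.63) and Tubd1 (-0.80) were the others that fell. The Tubd1 call was lost without WT replicate 1, 2 or 3, since it was tested through the WT libraries alone, so that a fall was built in. Tubb6 was at 115, 122 and 128 RPKM in DKO and 122, 106 and 111 RPKM in WT, with a log2 difference of 0.11 as deposited and 0.33 after scaling. At P0, where 3 of these genes were listed, Tuba4a rose (0.41, adjusted p = 0.00267 by limma) and Tube1 fell (-0.47, adjusted p = 0.00613 by limma), where 16.7% of all genes rose and 22.8% fell.

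Of 12 genes that fold tubulin or modify its tail 1 rose at E17, where 6.61% of all genes did, and 3 fell at P5, where 30.8% of all genes did. Tbcd, a chaperone that joins alpha- and beta-tubulin, rose at E17 (0.51, adjusted p = 0.00186 by limma), a call lost without any library but WT replicate 1 (adjusted p of up to 0.12). Atat1, the enzyme that acetylates alpha-tubulin, fell at P5 to 3.77, 4.09 and 4.39 RPKM in DKO, against 7.93, 7.28 and 6.84 RPKM in WT (-0.72, adjusted p = 4.34e-05 by limma). Ttc5, which senses free tubulin and triggers decay of tubulin mRNA, fell at P5 (-0.44, adjusted p = 0.000683 by limma). Vash2, a subunit of an enzyme that removes the last tyrosine of alpha-tubulin, fell at P0 (-0.65, adjusted p = 0.000333 by limma) and at P5 (-0.38, adjusted p = 0.00238 by limma), where it was tested through the WT libraries alone, so that a fall was built in, and the P5 call was lost without any library but DKO replicate 1. The median of the 12 after scaling was 0.00 at E17 and -0.02 at P5.

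Stathmin 1 and the growth cone proteins related in function to Gap43 took both directions. Stmn1, the broadly made stathmin of dividing cells, rose at E17 to 382, 460 and 430 RPKM in DKO, against 294, 300 and 261 RPKM in WT (0.57, adjusted p = 0.00238 by limma). That call was lost without DKO replicate 2, DKO replicate 3 or WT replicate 3 (adjusted p of up to 0.104). At P5 Stmn1 fell to 48.5, 50.6 and 46.2 RPKM in DKO, against 90.5, 90.3 and 85.3 RPKM in WT (-0.86, adjusted p = 3.47e-06 by limma). Basp1, a membrane-bound growth cone protein, rose at E17 (0.72, adjusted p = 0.0011 by limma) and fell at P5 (-0.42, adjusted p = 0.000215 by limma). Marcksl1, a membrane-bound protein that acts on actin, fell at P5 (-0.51, adjusted p = 2.93e-05 by limma), and Marcks fell at P0 (-0.42, adjusted p = 0.00548 by limma). Of the 5 genes tested at E17 2 rose, where 6.61% of all genes did, and of the 4 tested at P5 3 fell, where 30.8% of all genes did. Stmn4, the remaining neuronal stathmin, was at 2.32, 0.882 and 2.19 RPKM in DKO at E17, against 1.68, 0.736 and 1.49 RPKM in WT, and did not pass.

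Proteins that bind microtubules in neurons showed no single direction at E17. Of 12 genes 2 rose and 1 fell, where 6.61% of all genes rose and 3.07% fell. The median log2 difference of the 12 was 0.35 (0.09 after scaling). Dpysl5 (0.52, adjusted p = 0.00182 by limma) and Crmp1 (0.54, adjusted p = 0.00201 by limma) belong to the collapsin response mediators, which act in axon guidance. Dcx, doublecortin of migrating neurons, fell to 0.703, 0.471 and 0.706 RPKM in DKO, against 1.18, 1.04 and 1.4 RPKM in WT (-0.44, adjusted p = 0.00802 by limma). It met the limit of 1 RPKM through the WT libraries alone, so a fall was built into its being tested. None of these 3 calls held in every fit that left out 1 library, with adjusted p-values of up to 0.121 for Dpysl5, lost without each of the 6 libraries in turn, 0.114 for Crmp1, kept only without WT replicate 2, and 0.0528 for Dcx without DKO replicate 3, while without WT replicate 1, 2 or 3 Dcx missed the limit for testing. Map2, a protein of dendrites, was at 9.37, 9.29 and 9.54 RPKM in DKO and 5.66, 7.31 and 6.03 RPKM in WT at E17 and did not pass after scaling, and at P0 it fell to 4.50, 4.31 and 4.26 RPKM in DKO, against 7.75, 5.63 and 8.36 RPKM in WT (-0.61, adjusted p = 0.00183 by limma). At P5 4 of the 12 were tested and 3 fell, where 30.8% of all genes did. They were Dpysl2 (-0.62, adjusted p = 0.00022 by limma), Dpysl3 (-0.71, adjusted p = 0.000333 by limma) and Dclk1 (-0.54, adjusted p = 0.00477 by limma). Dclk1 was tested through the WT libraries alone, so a fall was built in, and its call was lost without any library but DKO replicate 1. As deposited, every DKO library lay below every WT library at P5 for 11 of the 12 genes, untested ones included. This held for 61.8% of all genes tested. Mapt, not tested at P5, averaged 0.384 RPKM in DKO and 1.13 RPKM in WT, while Dcx overlapped between genotypes.

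Whether Tubb3 moved with neuronal genes in general was asked with 29 genes that most neurons make. At E17 15 of them were tested, 13 of the 29 being below 1 RPKM in every library, and 5 rose and none fell, where 6.61% of all genes rose. Their median log2 difference was 0.33, and 0.15 after scaling. Every DKO library lay above every WT library, as deposited, for 24 of the 29 genes, untested ones included, where this held for 60.9% of all genes tested. Among the low ones, Elavl3 averaged 0.458 RPKM in DKO and 0.0880 RPKM in WT, and Elavl4 averaged 0.418 RPKM in DKO and 0.0965 RPKM in WT, both RNA-binding proteins that mark young neurons. Uchl1, an abundant neuronal deubiquitinase, rose to 15.6, 18.9 and 16.8 RPKM in DKO, against 10.04, 9.55 and 8.79 RPKM in WT (0.79, adjusted p = 0.000499 by limma). Rtn1, a protein of the endoplasmic reticulum, rose to 3.95, 3.01 and 3.87 RPKM in DKO, against 1.69, 1.49 and 1.60 RPKM in WT (0.82, adjusted p = 0.000819 by limma), a call that was lost without DKO replicate 3 (adjusted p = 0.0502).

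Scg2, a secretory granule protein (0.81, adjusted p = 0.00203 by limma), Thy1, a surface protein of neurons and of fibroblasts (0.90, adjusted p = 0.00189 by limma), and Kif5c, a kinesin motor (0.49, adjusted p = 0.00252 by limma), were the other 3 that rose. The Scg2 call was lost without DKO replicate 3 or WT replicate 3 (adjusted p of up to 0.0762). The Thy1 call was lost without DKO replicate 1, DKO replicate 3, WT replicate 1 or WT replicate 3, and that of Kif5c without any library but DKO replicate 2, with adjusted p-values of up to 0.12 and 0.136. Each of the 5 was higher in all 3 DKO libraries than in all 3 WT libraries. The summed RPKM of the 29 genes was 96.6, 96.0 and 101 in DKO, against 58.4, 69.3 and 60.6 in WT, and after scaling 93.2, 84.5 and 89.7 in DKO, against 64.1, 76.7 and 68.7 in WT.

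The neurofilaments, the other cytoskeletal hallmark of neurons, were low at E17 and differed in how they stood between the genotypes. Nefl, the light chain, was at 1.97, 0.772 and 1.89 RPKM in DKO, against 1.48, 0.721 and 1.34 RPKM in WT. Nefm, the medium chain, was at 1.64, 0.675 and 1.70 RPKM in DKO, against 0.991, 0.710 and 1.06 RPKM in WT, and both genes overlapped between genotypes. Nefh, the heavy chain, was at 0.283, 0.142 and 0.367 RPKM in DKO, against 0.122, 0.0442 and 0.0806 RPKM in WT. Ina, another neuronal intermediate filament, was at 0.650, 0.583 and 0.638 RPKM in DKO, against 0.260, 0.109 and 0.221 RPKM in WT. Both were below the limit for testing, with every DKO library above every WT library. Prph, the intermediate filament of peripheral neurons, was at 4.59, 1.07 and 4.09 RPKM in DKO, against 0.652, 0.462 and 0.770 RPKM in WT, with no overlap. It was tested through the DKO libraries alone and did not pass after scaling. Replicate 2 was the lowest library of its genotype for Nefl, Nefm, Prph and Stmn4 in both genotypes. In DKO replicate 2 was the highest for Tubb3 (25.8 RPKM), and also for Tubb2b, Tuba1a, Stmn3, Uchl1, Scg2 and Kif1a. But it was the lowest DKO library for Tubb2a (47.0 RPKM), Stmn2 (5.55 RPKM) and Gap43 (17.2 RPKM), and also for Rtn1, Thy1 and Kif5c. The order of the Tubb3 libraries in both genotypes was that of 8.35% of all genes tested at E17. These orders were noticed after the values were seen.

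At P5 most of the neuronal genes were close to 0, while Tubb3 stood at 26.6 to 33.7 RPKM in DKO and at 61.8 to 100 RPKM in WT. Of the 29 genes 22 lay below 1 RPKM in every library. Of the 3 tested 1 fell and none rose, where 30.8% of all genes fell and 7.35% rose. For 8 of the 29 genes, untested ones included, every DKO library lay below every WT library as deposited, and for 0 above. All DKO libraries lay below all WT libraries for 61.8% of all genes tested. Among the low ones, Kif5c averaged 0.370 RPKM in DKO and 0.864 RPKM in WT, without overlap. Elavl3 averaged 0.054 RPKM in DKO and 0.046 RPKM in WT, and its relative Elavl4 averaged 0.041 RPKM in DKO and 0.083 RPKM in WT. The groups of these 2 overlapped. Snap25, of the synapse, averaged 0.517 RPKM in DKO and 0.361 RPKM in WT, and Prph 0.180 RPKM in DKO and 0.142 RPKM in WT. No gene of the list was at 0 in every library. Thy1 fell to 3.65, 4.66 and 3.04 RPKM in DKO, against 8.15, 10.4 and 7.84 RPKM in WT (-1.04, adjusted p = 7.89e-05 by limma). Uchl1, by contrast with Tubb3, was at 24.4, 31.1 and 33.5 RPKM in DKO and 30.7, 25.7 and 27.9 RPKM in WT, with overlapping groups. The summed RPKM of the 29 genes was 37.9, 46.1 and 47.8 in DKO and 52.8, 48.8 and 48.3 in WT, to which Uchl1 gave more than any other gene. At P0 2 of these genes were tested, the kinesins Kif1a and Kif5a, and neither passed.

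Of 18 genes that give peripheral neurons their identity 3 were tested at E17, and 1 rose, where 6.61% of all genes did. Th, the enzyme that starts catecholamine synthesis, was at 1.35, 1.32 and 1.21 RPKM in DKO, against 0.574, 0.360 and 0.414 RPKM in WT (0.66, adjusted p = 0.00158 by limma), and it was tested through the DKO libraries alone, so that it missed the limit when any DKO library was left out. The sensory neuron factors Isl1 and Pou4f1 were below 1 RPKM in every E17 library. At P5 2 of the 18 were tested and 1 fell, where 30.8% of all genes did. Tac1, the precursor of substance P, fell (-0.91, adjusted p = 0.00125 by limma), but it was tested through the WT libraries alone, so that a fall was built in, and missed the limit without WT replicate 1, 2 or 3. Th was at 12.2, 11.2 and 11.2 RPKM in DKO and 11.5, 13.1 and 10.8 RPKM in WT at P5.

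Of 13 genes of Schwann cells and their precursors, which ensheathe nerve fibres, 9 were tested at E17. Of these 9 genes 1 rose, where 6.61% of all genes did. Fabp7, a fatty acid carrier of glial precursors, rose at E17 (0.74, adjusted p = 0.00238 by limma), a call lost without DKO replicate 2, DKO replicate 3 or WT replicate 3 (adjusted p of up to 0.0753), and fell at P5 (-0.95, adjusted p = 0.000114 by limma). Sox10, the glial transcription factor, was at 1.51, 1.60 and 1.78 RPKM in DKO and 1.56, 1.25 and 1.34 RPKM in WT at E17. At P5 it reached at most 0.179 RPKM in any library. At P0 Ngfr, the low-affinity neurotrophin receptor, fell to 3.66, 2.71 and 3.53 RPKM in DKO, against 9.93, 8.63 and 9.94 RPKM in WT (-1.29, adjusted p = 2.72e-06 by limma), and Erbb3 fell (-0.39, adjusted p = 0.00736 by limma). The summed RPKM of the 13 genes was 51.1, 58.1 and 57.3 in DKO and 43.0, 44.0 and 42.0 in WT at E17, and 13.3, 12.2 and 14.5 in DKO and 17.9, 16.9 and 15.4 in WT at P5. After scaling it was 49.3, 51.1 and 50.8 in DKO and 47.1, 48.7 and 47.6 in WT at E17, and 14.4, 13.3 and 15.6 in DKO and 15.8, 15.9 and 14.8 in WT at P5, where the groups then overlapped.

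**Figure D4:**
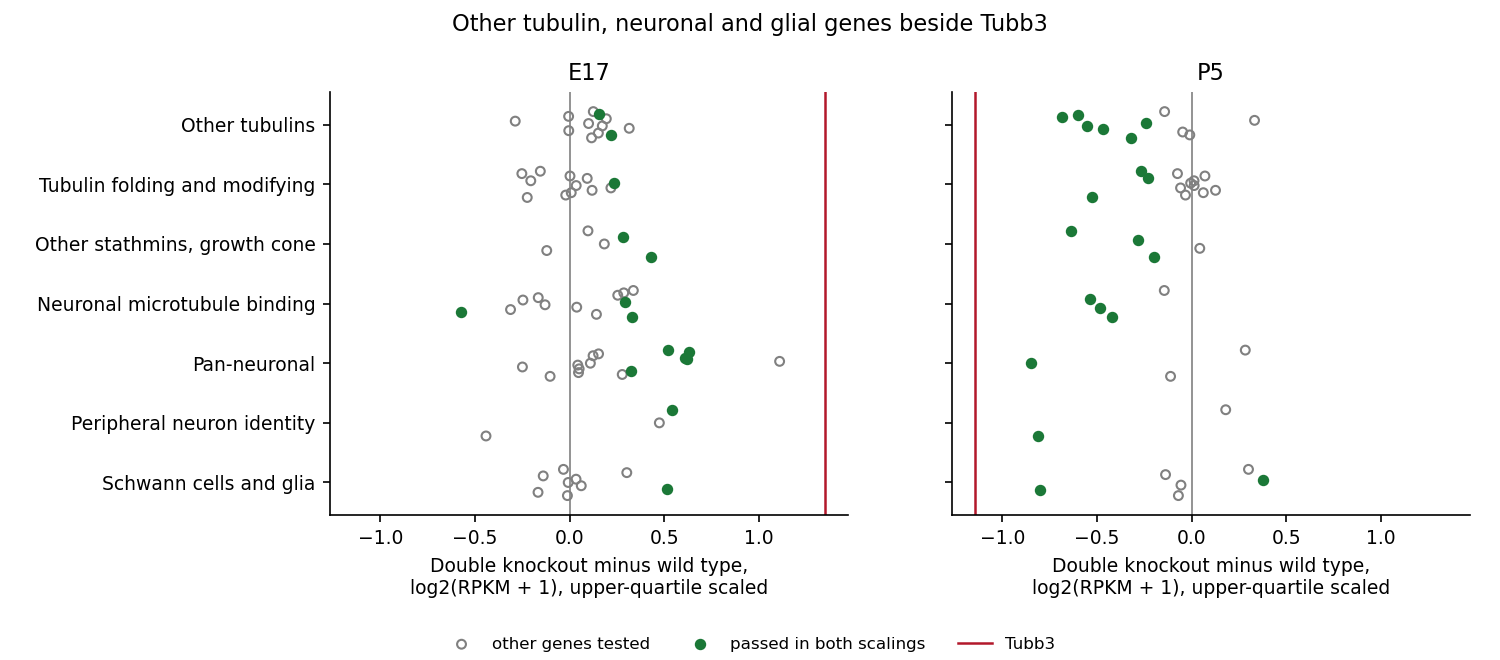
Log2 differences (DKO minus WT) after upper-quartile scaling for the tested genes of 7 lists at E17 and P5, filled where the gene passed in both scalings, with the red line at Tubb3 (1.35 at E17, -1.14 at P5). On this scale, which understates changes of low genes, no tested gene of these lists lies as far from 0 as Tubb3 at either stage. The open point nearest to it at E17 is Prph (1.11). By the ratio of DKO to WT means as deposited, some low genes differed more. At E17 these include Prph (5.17) and the untested Elavl3 (5.20), against 3.35 for Tubb3. At P5 they include Tubd1 (0.341) and the untested Mapt (0.338), against 0.376 for Tubb3.

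Of 7 genes of Merkel and neuroendocrine cells 1 was tested at E17, Piezo2, and it did not pass, and none was tested at P5. Of the transcription factors that set neuronal fate, 3 were tested at each of E17 and P5 (Sox4, Sox11 and Sox12), and none passed in both scalings. The complex around REST, which represses neuronal genes in other cells, had 9 members tested at E17, and none passed in both scalings. At P5 Rest rose to 6.05, 5.93 and 5.99 RPKM in DKO, against 3.89, 3.92 and 3.73 RPKM in WT (0.53, adjusted p = 8.85e-05 by limma). Its partners Rcor1, Rcor2, Rcor3, Hdac1, Hdac2, Sin3a and Ehmt2 fell, so that 1 of the 9 rose and 7 fell, where 7.35% of all genes rose and 30.8% fell. Rcor2, a corepressor that binds the demethylase Kdm1a, showed the largest fall among them, to 2.19, 1.92 and 1.99 RPKM in DKO against 4.62, 4.63 and 4.14 RPKM in WT (-0.85, adjusted p = 1.72e-05 by limma).

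Markers of mesenchyme, the tissue that was peeled away, moved with genotype as well. Of 9 mesenchymal genes 1 rose (Twist2) and 3 fell (Col1a1, Col1a2 and Prrx1) at E17, where 6.61% of all genes rose and 3.07% fell. At P5 5 fell (Col1a1, Col1a2, Vim, Twist2 and Msx1), where 30.8% of all genes did, none being at 0. The E17 calls of Twist2 and Prrx1 were each lost without 4 of the 6 libraries in turn (adjusted p of up to 0.0986 and 0.124), for Twist2 without replicate 1 or 3 of either genotype and for Prrx1 without replicate 2 or 3 of either. Their summed RPKM was 2355, 2621 and 2563 in DKO, against 3968, 4370 and 4092 in WT at E17, and 1193, 1127 and 829 in DKO, against 2092, 1965 and 1884 in WT at P5. Epithelial markers summed to 1962, 2133 and 2085 RPKM in DKO and 1915, 1649 and 1771 RPKM in WT at E17, and to 3624, 3667 and 3718 RPKM in DKO and 4411, 3640 and 3819 RPKM in WT at P5. After scaling the epithelial sums overlapped at E17, at 1892, 1877 and 1847 in DKO and 2100, 1825 and 2007 in WT, and at P5 they turned to higher in DKO, at 3935, 4012 and 3994 in DKO and 3911, 3420 and 3664 in WT. Of the 6 epithelial genes 3 rose at E17, Epcam and Trp63 among them, where 6.61% of all genes did. At P5 1 fell, Epcam, where 30.8% of all genes did. That P5 call was lost without DKO replicate 1, DKO replicate 2, WT replicate 1 or WT replicate 3 (adjusted p of up to 0.101). The mesenchymal sum was lower in DKO at E17 and at P5, also after scaling. The E17 sum was carried by Col1a1 and Col1a2, the chains of type I collagen, and the median log2 difference of the 9 genes was -0.03 (-0.32 after scaling). At P0, where Tubb3 was not analysed, 4 of the 9 genes summed to 1799, 2736 and 2437 RPKM in DKO, against 692, 560 and 685 RPKM in WT, with Col1a1 risen (2.12) and Col3a1, Twist2 and Prrx1 fallen. Of all genes tested at P0 16.7% rose and 22.8% fell. The part of mesenchyme in the Tubb3 difference, and that of the glial and neuronal lists, was not tested.

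The 5 genes whose profile was most like that of Tubb3 came from none of the neuronal lists, but most genes of those lists could not be ranked. Likeness was the root mean square difference of log2 values, centred on the stage mean, over the 12 libraries of E17 and P5. It was ranked over 10546 protein-coding genes tested at both stages, with predicted genes left out. Of the 29 genes that most neurons make 3 were tested at P5, and of the 12 that bind microtubules in neurons 4 were. The others could not appear in the ranking. The closest was Cyp26a1, the enzyme that breaks down retinoic acid (0.133), then Shh, the Hedgehog ligand of the dental epithelium (0.135). Igfbpl1, an insulin-like growth factor binding protein (0.252), Ccnd1, the cyclin of early cell cycle (0.263), and Krt80, a keratin (0.272), came next. Stmn2 ranked 12 (0.354), Gap43 ranked 214, Tuba1a 477, Tubb2a 1180 and Tubb2b 1539.

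Shh averaged 66.6 RPKM in DKO and 19.6 RPKM in WT at E17, and 46.1 RPKM in DKO and 113 RPKM in WT at P5. Cyp26a1 averaged 17.6 RPKM in DKO and 6.21 RPKM in WT at E17, and 49.1 RPKM in DKO and 132 RPKM in WT at P5. Both genes thus stood with Tubb3 in being higher in DKO at E17 and lower at P5. The ranking used the genotype differences themselves, and the points share their libraries, so no test was made.

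**Figure D5:**
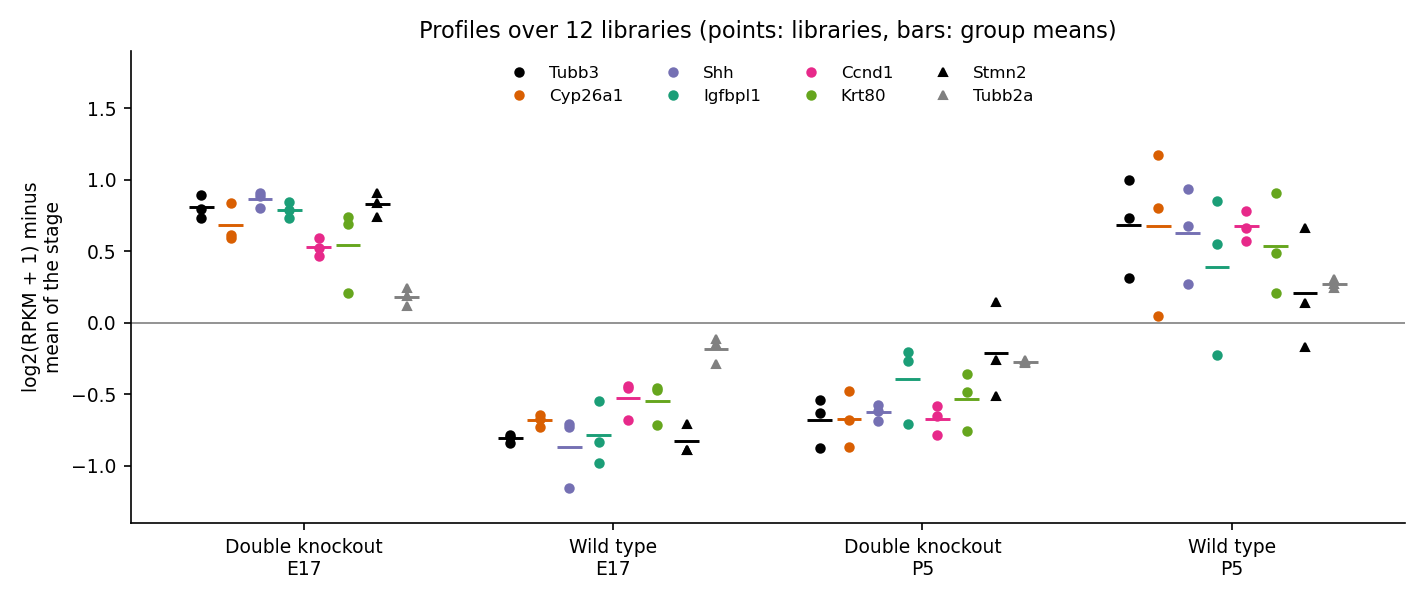
Log2(RPKM + 1) minus the mean of the stage for Tubb3, the 5 genes most like it, Stmn2 and Tubb2a, with a point for each of 12 libraries and bars for the means of the 4 groups. The 5 genes lie above 0 in DKO at E17 and below 0 in DKO at P5 as Tubb3 does, while Stmn2 overlaps between genotypes at P5.

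The order of libraries within a group was compared after the values were seen. At P5 Tubb3, Tubb2b, Tuba1a and Stmn2 shared 1 order in both genotypes, with DKO replicate 3 above 2 above 1 and WT replicate 1 above 3 above 2. Of 11423 genes 6.84% had this pair of orders. Tubb2a and Gap43 had other orders at P5, and at E17 no order was shared by Tubb3 and Stmn2.

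The genes beside Tubb3 on chromosome 8 that could be tested lay near the median of all genes after scaling. Of the 3 protein-coding neighbours on each side, Tcf25, Def8, Afg3l1 and Dbndd1 were tested at E17, with log2 differences after scaling of 0.01, 0.14, -0.03 and 0.00, and none passed in both scalings. At P5 Tcf25, Def8 and Afg3l1 were tested, at 0.06, -0.01 and 0.01 after scaling, and none passed in both. Spire2 and Mc1r were below the limit at both stages. At E17 Spire2 was at 0.759, 0.973 and 0.662 RPKM in DKO, against 0.530, 0.364 and 0.430 RPKM in WT, and Mc1r, the nearest gene before Tubb3, was at 0.0731, 0.0738 and 0.0462 RPKM in DKO, against 0.0141, 0 and 0.00984 RPKM in WT, with every DKO library above every WT library for both. At P5 both overlapped. Nearly all Tubb3 signal at E17 came from the longer of its 2 listed transcripts, and the other reached at most 8.1e-08 RPKM.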

How the data were processed

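Total RNA from dental epithelium was sequenced in 18 libraries. Per the submitters' processing notes, the authors used Partek (no version given) and build mm10; no source used here gives the aligner, the annotation, the strand setting or how reads were split between gene copies. The deposited values are RPKM per transcript. No source names this unit, which was read from the values: in 76.2% to 92.0% of low values a whole number of reads came out, within 0.1, and the steps give 16.75 M to 45.5 M reads per library. Counts enter only as the number of alignments deposited by the authors. Depth limits precision for low genes (1 read on 1 kb is 0.0220 to 0.0597 RPKM).

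RPKM was summed per gene symbol. A gene was tested at a stage where 3 or more of its 6 libraries reached 1 RPKM, which left 13728 genes for E17, 2062 for P0 and 11423 for P5. Values of log2(RPKM + 1) were compared by genotype within each stage with limma 3.58.1 (trend, two-sided) in R 4.3.3, with Benjamini-Hochberg adjustment over all genes tested. A fold on this scale understates changes of low genes. The code was tested on simulated data. The replicate number was not a block.

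Members and lists were chosen with earlier results of these data known. Named were the 7 genes, Hmgn1 and Hmgn2, up to 4 genes of each list with the smallest p at a stage, list genes that passed in both scalings, the 3 protein-coding neighbours on each side of Tubb3 and the 5 genes most like it. Neurofilament, marker and other genes at low levels were named after their values were seen. A few list genes are not reported here. The lists cover other tubulins, tubulin folding and modification, stathmins and growth cones, microtubule binding, neurons, peripheral neuron identity, glia, Merkel cells, the REST complex, neuronal fate, epithelium and mesenchyme. Alternatives were 2 scalings, no filter, a pseudocount of 0.1, no trend, a fold threshold, a replicate block, libraries left out and the most abundant transcript; the rule of both scalings and its combination with libraries left out were chosen after seeing the data.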

Additional observations from a re-analysis of the deposited data

Results flagged for a closer look

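The genes listed here had every DKO library on one side of every WT library at a stage and on the other side at another. The list is not complete. Tubb2a, Tubb2b, Tuba1a and Gap43 met the same rule, with DKO above WT at E17 and below it at P5, as did Hdac2 and Dpysl3. The difference between stages was not tested, since the tables were normalized apart. Each value is the log2 difference between genotypes (DKO minus WT) at P5 minus that at E17. It was -2.97 for Tubb3, the largest in size of the genes listed here. Among other tubulins it was -0.95 for Tuba1b, -1.23 for Tubb4b, -1.21 for Tubd1 and -1.23 for Tubg1. Stmn1 gave -1.43, Basp1 -1.14 and Marcksl1 -0.98. Thy1 gave -1.94, Tac1 -1.64, Fabp7 -1.70 and Hdac1 -0.93. Map2 gave -1.12 for P0 against E17. As deposited, genes in general were shifted upward in DKO at E17 (median 0.25) and downward at P5 (median -0.25).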

How the results depend on the processing

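As deposited, 8188 genes passed at E17 (94.5% higher in DKO), against 2011 (45.2% higher) after upper-quartile scaling, 2020 (45.6% higher) after median-of-ratios scaling and 252 with a log2 difference of at least 1 in size. At P5 7486 passed (11.2% higher), against 5726 (38.6% higher) and 5659 (50.5% higher) under these scalings and 197 with the fold threshold. At P0 823 passed, and 62 with the fold threshold. With each library left out in turn, E17 had 5352 to 9183 genes that passed, P0 had 633 to 946 and P5 had 6511 to 6856. In both scalings 1330 genes passed at E17, and 529 to 1420 with a library left out, 529 without DKO replicate 3 and 595 without WT replicate 3. The cause was not tested.

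The log2 difference of Tubb3 ranged over all alternatives run from 1.35 to 1.73 at E17 and from -1.55 to -1.08 at P5. Over the 13 differences of the 7 genes and 166 alternatives, none changed direction. In 13 the difference no longer passed, which were Tubb2a, Tubb2b and Tuba1a at E17 under both scalings, Tubb2b and Gap43 at P5 under both scalings, Tuba1a at P5 after median-of-ratios scaling, and Tubb2b at E17 and Gap43 at P5 without the filter. In 2 Stmn2 at P5 newly passed. Stmn3 at E17 could not be tested when a DKO library was left out, since it then missed the limit.

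Same-numbered libraries did not deviate together in every pair: the correlation of their deviations was -0.02, 0.22 and -0.02 at E17 for numbers 1, 2 and 3, -0.17, 0.27 and -0.08 at P0, and -0.22, -0.07 and 0.04 at P5. With the replicate block E17 had 7671 genes that passed, P0 had 842 and P5 had 7103, and Tubb3 stayed at 1.61 at E17 and -1.36 at P5.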
